A study of Rattus norvegicus with 9 samples.

Results

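The 7 genes described here are those through which adipose cells make, sense and answer to glucocorticoid hormone: Hsd11b1, Nr3c1, Nr3c2, Fkbp5, Tsc22d3, Zbtb16 and Klf9. They were chosen by name, as the rows of the deposited count table that carry these symbols, and all 7 were found among its 35362 genes. The cells were mesenchymal stem cells grown from 3 fat depots of Sprague Dawley rats, which were male and 6 weeks old: subcutaneous groin fat gave SASCs, perirenal fat around the kidney gave PASCs, and epididymal fat beside the testis gave EASCs. Each group holds 3 samples of RNA from cells at passage 3. All were kept in medium with fetal bovine serum, with no treatment and no added glucocorticoid named. The cells are a plated collagenase digest that was not sorted. The replicates were wells of culture plates, 6 in each group by the methods, and the sources used here leave unsaid how many rats the wells came from, so the p-values measure only the spread between these samples, which may be technical.

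Glucocorticoids such as corticosterone, the main one in rats, enter cells freely, and a cell can set its own exposure. The enzyme 11beta-hydroxysteroid dehydrogenase type 1, from Hsd11b1, turns inactive 11-dehydrocorticosterone back into corticosterone inside the cell. The hormone then binds the glucocorticoid receptor (Nr3c1) or the mineralocorticoid receptor (Nr3c2), which leave their chaperones, enter the nucleus and switch genes on or off. Fkbp5, Tsc22d3, Zbtb16 and Klf9 are widely used as genes that such receptors switch on. In adipose tissue the pathway is known for its part in adipocyte differentiation and lipid storage.

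Promoter sequences are shown for the 3 receptor target genes that have a window in RefSeq's table for the assembly GRCr8, since their counts moved in different directions between the depots. Each window runs from 250 bases before an annotated start to 50 bases after it and is written 5′ to 3′ on the gene's strand. Capitals mark matches on either strand to 3 common promoter motifs: the TATA box, read as TATAAA, the box named for its letters CCAAT, and the GC box, read as GGGCGG. Neighbouring matches can share letters. The windows are at chr20:6543506-6543805 on the minus strand for Fkbp5, chr1:230126396-230126695 on the plus strand for Klf9 and chrX:109009985-109010284 on the minus strand for Tsc22d3.
Fkbp5: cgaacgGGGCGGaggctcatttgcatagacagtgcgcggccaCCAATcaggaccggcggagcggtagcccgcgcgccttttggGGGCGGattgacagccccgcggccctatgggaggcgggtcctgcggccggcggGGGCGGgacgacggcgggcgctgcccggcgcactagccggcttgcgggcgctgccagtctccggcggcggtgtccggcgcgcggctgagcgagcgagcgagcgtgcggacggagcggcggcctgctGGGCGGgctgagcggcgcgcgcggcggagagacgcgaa
Klf9: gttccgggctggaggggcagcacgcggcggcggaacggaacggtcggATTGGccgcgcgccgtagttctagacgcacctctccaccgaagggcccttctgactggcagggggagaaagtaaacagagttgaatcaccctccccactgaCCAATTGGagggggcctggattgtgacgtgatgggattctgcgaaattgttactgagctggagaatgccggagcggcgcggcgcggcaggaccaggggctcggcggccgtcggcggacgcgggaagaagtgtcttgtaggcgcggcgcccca
Tsc22d3: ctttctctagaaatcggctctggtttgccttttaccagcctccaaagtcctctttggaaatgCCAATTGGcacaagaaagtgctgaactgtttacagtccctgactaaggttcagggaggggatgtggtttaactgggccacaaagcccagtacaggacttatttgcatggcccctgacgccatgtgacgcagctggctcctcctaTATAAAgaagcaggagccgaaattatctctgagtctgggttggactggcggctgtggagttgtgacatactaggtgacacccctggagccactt

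Windows were found for 4 of the 7 genes: 1 for Fkbp5, 1 for Klf9, 2 for Nr3c1 and 3 for Tsc22d3. Hsd11b1, Nr3c2 and Zbtb16 were not matched. The palindrome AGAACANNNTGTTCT, the full glucocorticoid response element, was in 0 of these 7 windows and in 0.0149% of the 33469 windows of the table. The looser form GNACANNNTGTNC was in 0 of 7 against 0.439%, and the single hexamer AGAACA was in 0 of 7 against 20.7%, with both strands read each time. The absence says only that these letters are not in these 300 bases. TATAAA was in 1 of 7 windows, the Tsc22d3 window printed above, where it begins 44 bases before the start, against 14.2% of all windows. CCAAT was in 3 of 7 against 37.5%, and GGGCGG was in 5 of 7 against 33.1%. Tsc22d3 has 3 annotated starts here while the deposited counts are per gene, so they do not say which start was used.

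Total counts per sample ranged from 17591916 to 30299032. Genes of ribosomal RNA held 10.4% to 15.5% of a SASCs library, against 22.4% to 32.9% for PASCs and 15.9% to 40.3% for EASCs. Levels are given below as CPM, counts scaled to the size of each library with TMM factors of 0.740 to 1.23, a scaling that limits the pull of a few abundant genes. A gene at 3 counts in a sample had 0.104 to 0.159 CPM. Levels of different genes are compared only as FPKM, which is CPM per kilobase of the length in the table. Of the 35362 genes, 14770 passed the filter on low counts, among them all 7 of the set, with Zbtb16 passing only through its counts in SASCs. A gene was called a DEG when its level differed by over 2-fold with an adjusted p under 0.05, from edgeR's quasi-likelihood test with Benjamini-Hochberg adjustment over all genes tested. All adjusted p-values below are from that test, and each log2 fold change is followed by its SE.

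The labelled cell type was checked against marker genes. The 9 mesenchymal progenitor markers were all detected, but they did not move together. Their summed level was 19445 to 24549 CPM per sample. Col1a1 went from 10698 CPM in SASCs to 19134 CPM for PASCs and 20332 CPM for EASCs, while 3 of the 9 were lower DEGs in both comparisons with SASCs. These were Dcn, at 6880 CPM in SASCs and 218 CPM and 301 CPM in PASCs and EASCs, Lum, at 3234 CPM against 93.1 CPM and 74.1 CPM, and Pdgfra, at 1543 CPM against 278 CPM and 235 CPM. The 7 mature adipocyte markers summed to 156 to 172 CPM in SASCs, compared with 43.2 to 48.5 CPM for PASCs and 24.4 to 24.9 CPM for EASCs, with Lep at 3 counts or fewer in SASCs. All 6 adipocyte markers that were tested were lower DEGs in both PASCs and EASCs. The 6 smooth muscle and pericyte markers, summed, ran from 88.5 to 93.6 CPM in SASCs to 262 to 269 CPM for PASCs and 778 to 825 CPM for EASCs. Of these, Cnn1, Myh11, Des and Cspg4 were higher DEGs in both, while Notch3, a pericyte gene, was a lower DEG in both, at 48.0 CPM in SASCs against 4.43 CPM and 22.5 CPM in PASCs and EASCs, and Rgs5 had 91 counts in SASCs against 6 and 12. The 6 macrophage and leukocyte markers found, of 7, summed to 49.7 to 58.6 CPM, 95.4 to 96.3 CPM and 166 to 173 CPM in the same order, with Cd3e at 0 counts in every sample. Lyz2 and Csf1r were higher DEGs in both, but Cd163 was a lower DEG in PASCs, at 7.52 CPM against 27.8 CPM in SASCs, and was not called in EASCs, at 30.8 CPM. The 7 mesothelial markers summed to 20.01 to 21.4 CPM, 97.8 to 105 CPM and 130 to 141 CPM. Of these, Krt19 was at 3 counts or fewer in PASCs and EASCs, as was Upk3b in SASCs. The 6 endothelial markers summed to 52.5 to 53.7 CPM, 6.30 to 8.15 CPM and 30.4 to 31.9 CPM. All 6 were lower DEGs in PASCs, but in EASCs only Kdr was a lower DEG and 5 were not called. The part that these differences in cell make-up have in the results below was not tested. In bulk samples, fewer cells of a type and less RNA per cell cannot be told apart.

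Zbtb16 passed the filter only through the group where it is high, so it is described on its counts and left out of the numbers called against SASCs. Compared with SASCs, 3 of the other 6 genes were lower DEGs in EASCs and the same 3 were lower DEGs in PASCs: Hsd11b1, Nr3c1 and Klf9. Tsc22d3 was the only higher DEG among them in either comparison, while Fkbp5 was lower by less than 2-fold and Nr3c2 was not called. Over all genes tested, 14.2% were lower DEGs and 13.6% were higher DEGs in EASCs, and 14.9% and 12.0% in PASCs. The median log2 fold change of the 6 genes was -1.08 in EASCs, where that of all genes was 0.01, and -0.85 in PASCs, where that of all genes was -0.01. At an adjusted p under 0.05 and any fold change, 5 of the 6 differed in EASCs and 6 of the 6 in PASCs, against 69.7% and 69.2% of all genes. The samples of the groups did not overlap for 5 of 6 genes in EASCs and 6 of 6 in PASCs, against 72.1% and 71.6% of all genes. Both comparisons share the 3 SASCs samples, so the same direction in both is not independent evidence.

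**Figure D1:**
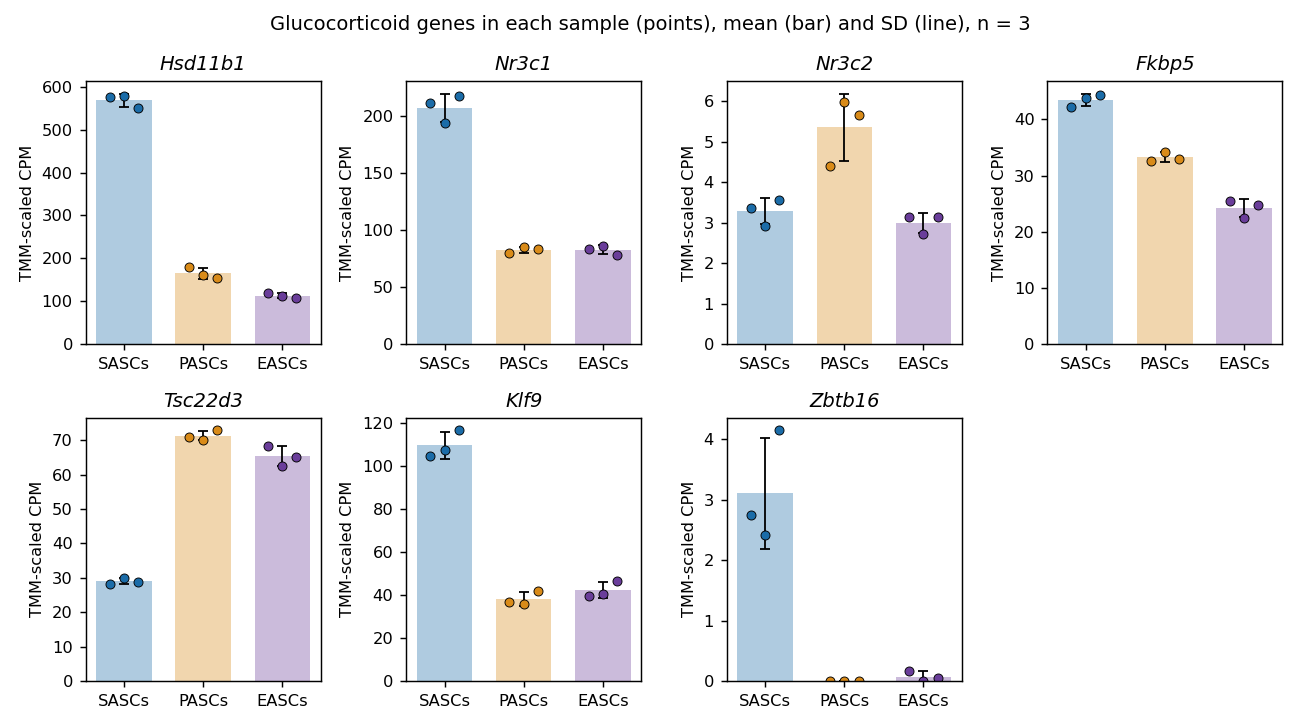
CPM after TMM scaling (vertical axes, each from 0) of the 7 genes in SASCs, PASCs and EASCs, with a point for each sample, a bar for the mean and a line for the SD (n = 3). SASCs stand above both other groups for Hsd11b1, Nr3c1, Fkbp5, Klf9 and Zbtb16 and below them for Tsc22d3, while for Nr3c2 PASCs stand highest.

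Hsd11b1, the enzyme gene at the head of the pathway (chr13:111946626-111996531 in rn6, minus strand), had the highest level of the set in every group, at 327 ± 8.76 FPKM (SD, n = 3) in SASCs. Its level was 576, 579 and 551 CPM in the 3 SASCs samples, 179, 162 and 154 CPM in PASCs, and 118, 113 and 107 CPM in EASCs. The groups stood apart with no overlap, in the order SASCs, PASCs and EASCs. The log2 fold change was -2.33 (SE 0.0612, adjusted p = 2.01e-22) in EASCs against SASCs, a 5.03-fold lower level, and -1.78 (SE 0.0598, adjusted p = 5.33e-20) in PASCs against SASCs, a 3.44-fold lower level. EASCs were also below PASCs by a log2 fold change of -0.55 (SE 0.0598, adjusted p = 3.15e-08), which is less than 2-fold.

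H6pd supplies the NADPH that lets the Hsd11b1 enzyme run towards active hormone, and is described for that role, outside the rule for named genes and after its values were seen. Its level was 60.9, 60.1 and 66.8 CPM in SASCs, against 42.0, 48.3 and 46.1 CPM for PASCs and 77.9, 86.7 and 89.0 CPM for EASCs. The samples of the 3 groups did not overlap, and unlike Hsd11b1 the level was highest in EASCs. Against SASCs the log2 fold change was 0.43 (SE 0.0666, adjusted p = 2.02e-06) in EASCs and -0.46 (SE 0.0687, adjusted p = 1.31e-06) in PASCs, both under 2-fold. With total counts in place of TMM the EASCs value was 0.04. The ratio of Hsd11b1 to H6pd in FPKM was 28.7, 29.3 and 25.1 in the SASCs samples, 12.95, 10.2 and 10.2 in PASCs, and 4.62, 3.97 and 3.66 in EASCs. The means were 27.7 ± 2.30, 11.1 ± 1.60 and 4.09 ± 0.487 (SD, n = 3), again with no overlap. Hsd11b2, whose enzyme inactivates corticosterone, did not pass the filter: SASCs had 12, 16 and 4 counts of it, PASCs 2, 0 and 1, and EASCs 0, 6 and 0.

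Nr3c1, the glucocorticoid receptor gene (chr18:31728373-32673988 in rn6, minus strand), was at 211, 194 and 217 CPM in SASCs, 80.1, 85.3 and 83.1 CPM in PASCs, and 83.7, 86.3 and 78.5 CPM in EASCs. All SASCs samples were above all others, while PASCs and EASCs overlapped. The log2 fold change was -1.32 (SE 0.0583) in both comparisons with SASCs, with adjusted p = 2.51e-17 in EASCs and 2.63e-17 in PASCs, a 2.50-fold lower level in each. Between EASCs and PASCs it was 0.00, with a 95% interval of -0.12 to 0.12 (adjusted p = 0.999). The span that the table gives for Nr3c1 is 945616 bases and holds other genes on both strands. The largest in counts was Spry4 on the other strand, with 19.9% as many counts as Nr3c1 over the 9 samples, followed by Arhgap26 on the same strand with 4.59%. Whether strand was used in counting is not given in the sources used here.

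Nr3c2, the mineralocorticoid receptor gene (chr19:34408275-34761003 in rn6, minus strand), was low, at 0.571 ± 0.0565 FPKM in SASCs against 32.5 ± 1.94 FPKM for Nr3c1 (SD, n = 3). Its level was 3.37, 2.93 and 3.56 CPM in SASCs, 4.40, 5.98 and 5.67 CPM in PASCs, and 3.14, 2.72 and 3.13 CPM in EASCs. PASCs were above both other groups in every sample, and SASCs and EASCs overlapped. The log2 fold change in PASCs was 0.70 (SE 0.182, adjusted p = 0.00132) against SASCs, and EASCs were below PASCs by a log2 fold change of -0.83 (SE 0.184, adjusted p = 8.11e-04). With total counts in place of TMM, PASCs against SASCs was 0.37 (adjusted p = 0.176). EASCs against SASCs gave -0.13, with a 95% interval of -0.53 to 0.26 (adjusted p = 0.544). None of these is above 2-fold. The gene LOC103694321, which overlaps Nr3c2 on the other strand, had 13.8% as many counts and was also highest in PASCs, with 21, 25 and 17 counts, against 6, 6 and 3 in the SASCs samples and 13, 10 and 14 in the EASCs samples. If it contributes to the Nr3c2 values was not tested.

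The ratio of Nr3c1 to Nr3c2 in FPKM sets both receptor genes side by side within a sample and does not depend on the scaling of the libraries. SASCs gave 56.6, 59.7 and 55.1, PASCs gave 16.4, 12.9 and 13.2, and EASCs gave 24.1, 28.7 and 22.6. The means were 57.1 ± 2.34, 14.2 ± 1.96 and 25.1 ± 3.17 (SD, n = 3), and no group overlapped another. Nr3c1 was the higher of the pair in every sample.

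**Figure D2:**
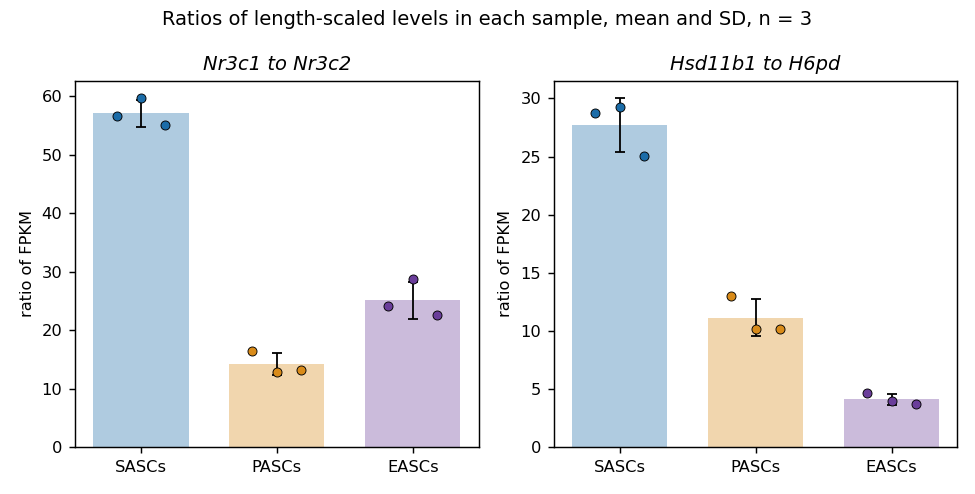
Ratios of FPKM within each sample (vertical axes, no unit, from 0) for Nr3c1 to Nr3c2 on the left and Hsd11b1 to H6pd on the right, with points for samples, bars for means and lines for SD (n = 3). SASCs were highest in both, PASCs lowest for the receptor pair at 14.2, and EASCs lowest for the enzyme pair at 4.09.

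Among the target genes, Tsc22d3, which encodes the anti-inflammatory protein GILZ (chrX:111884285-111944698 in rn6, minus strand; promoter printed above), went against the rest. It was at 28.2, 30.0 and 28.8 CPM in SASCs, 71.0, 70.2 and 72.9 CPM in PASCs, and 68.4, 62.5 and 65.1 CPM in EASCs. Every SASCs sample was below every other sample. The log2 fold change was 1.17 (SE 0.0633, adjusted p = 2.38e-15) in EASCs and 1.30 (SE 0.0632, adjusted p = 2.41e-16) in PASCs. EASCs and PASCs did not overlap, but their log2 fold change of -0.13 was not past the threshold (SE 0.0598, adjusted p = 0.116). With total counts in place of TMM, which moves the median of all genes by -0.40 in EASCs and -0.32 in PASCs, Tsc22d3 was at 0.77 and 0.98, still higher and under 2-fold.

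Fkbp5, which encodes the co-chaperone FKBP51 that lowers the receptor's affinity for hormone (chr20:7976704-8097291 in rn6, minus strand; promoter printed above), was at 42.3, 43.9 and 44.4 CPM in SASCs, 32.7, 34.3 and 32.9 CPM in PASCs, and 25.5, 22.5 and 24.8 CPM in EASCs. The 3 groups did not overlap and followed the order seen for Hsd11b1. The log2 fold change was -0.84 (SE 0.0721, adjusted p = 4.94e-11) in EASCs and -0.39 (SE 0.0703, adjusted p = 2.45e-05) in PASCs against SASCs, and -0.46 (SE 0.0731, adjusted p = 1.57e-05) in EASCs against PASCs. With total counts in place of TMM the EASCs value was -1.25, past 2-fold.

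Klf9, a Kruppel-like transcription factor (chr1:240908483-240933198 in rn6, plus strand; promoter printed above), was at 104.5, 108 and 117 CPM in SASCs, 37.0, 35.9 and 41.9 CPM in PASCs, and 39.6, 40.5 and 46.7 CPM in EASCs. All SASCs samples were above all others, and PASCs and EASCs overlapped. The log2 fold change was -1.37 (SE 0.0708, adjusted p = 8.47e-16) in EASCs and -1.52 (SE 0.0715, adjusted p = 1.10e-16) in PASCs against SASCs. Between EASCs and PASCs it was 0.15 (SE 0.0739, adjusted p = 0.141). LOC103691312, which overlaps the start of Klf9 on the other strand, had 25.1% as many counts over the 9 samples and was also lower outside SASCs, with 520 to 787 counts in SASCs and 211 to 302 in the other groups.

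Zbtb16, which encodes the transcription factor PLZF (chr8:52985444-53146765 in rn6, minus strand), had few counts: SASCs had 79, 57 and 85, PASCs had 0, 0 and 0, and EASCs had 4, 0 and 1. In SASCs this was 2.75, 2.42 and 4.15 CPM. PASCs were at least 24.1-fold lower than SASCs, taking 3 counts in each PASCs library as the limit that a count of 0 allows. EASCs, with 5 counts in all against 221, were 43.0-fold lower, with an exact 95% interval of 18.2 to 134 that covers counting error only. Of these 5 counts 4 were in the first EASCs sample, and without it the ratio was 143 (25.4 to 5663), against 28.1 without the second and 36.8 without the third. No p is given for Zbtb16 against SASCs, since its counts in SASCs alone carried it through the filter. PASCs and EASCs were both near the limit of detection, so no fold between them is given.

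**Figure D3:**
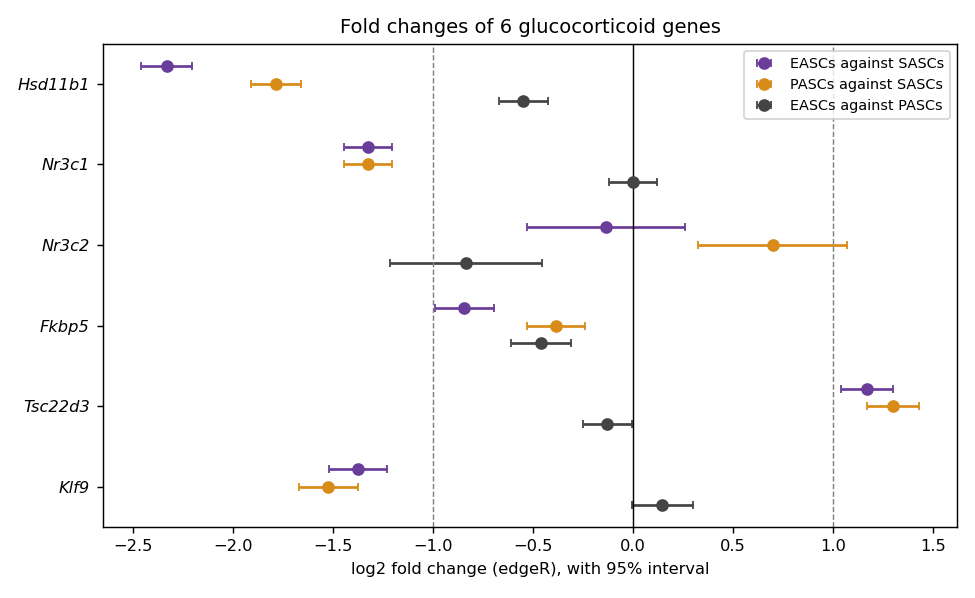
Log2 fold changes from edgeR (horizontal axis) with 95% intervals for 6 of the genes in the 3 comparisons between groups. Dashed lines mark 2-fold either way, and Zbtb16 is left out because its fitted value depends on the prior count. Hsd11b1 lies farthest to the left at -2.33, and Tsc22d3 lies to the right of the 2-fold line at 1.17 and 1.30.

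Directly between the visceral depots, 0 of the 7 genes were DEGs in EASCs against PASCs by edgeR, DESeq2 or limma-voom, where 5.19% of all genes were higher DEGs and 2.20% were lower DEGs. Leaving out Zbtb16, which had 0 counts in PASCs and 5 in EASCs, 4 of the other 6 had an unadjusted p under 0.05 by edgeR, against 39.0% of all genes, and 3 had an adjusted p under 0.05 at any fold change, against 30.7% of all genes. These 3, Hsd11b1, Fkbp5 and Nr3c2, were all lower in EASCs. Samples did not overlap for 4 of these 6 genes, against 41.2% of all genes. Without the second EASCs sample, Zbtb16 alone was called, on 5 counts in EASCs against 0 in PASCs.

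Other genes of the pathway were read from lists. Of 8 genes for glucocorticoid metabolism, binding and export, 4 were tested, and Hsd11b2, Srd5a2, Akr1d1 and Serpina6 were not. In EASCs 2 rose and 1 fell against SASCs, and in PASCs 2 rose and 0 fell. Over all genes tested, 13.6% were higher and 14.2% lower in EASCs, and 12.0% and 14.9% in PASCs. Abcb1a, a steroid-exporting pump, rose from 0.491 CPM in SASCs with a log2 fold change of 2.82 in EASCs (SE 0.270, adjusted p = 4.80e-10) and 3.35 in PASCs (SE 0.262, adjusted p = 7.26e-12). Its near copy Abcb1b fell in EASCs (-1.07, SE 0.0944, adjusted p = 8.65e-11), and reads shared by such a pair can be split in counting. Srd5a1, which encodes a steroid 5-alpha reductase acting on glucocorticoids among other steroids, rose by log2 values of 1.10 in EASCs (SE 0.230, adjusted p = 1.36e-04) and 1.37 in PASCs (SE 0.226, adjusted p = 6.15e-06). Its EASCs value was 0.70 with total counts in place of TMM and 0.96 without the third SASCs sample, and neither is above 2-fold.

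All 11 receptor chaperones were tested. Leaving out Hsp90aa1, which would not have passed the filter on SASCs alone, 2 of the other 10 rose in EASCs and 1 in PASCs. In either comparison 0 were lower. Over all genes tested, 13.6% were higher and 14.2% lower in EASCs, and 12.0% and 14.9% in PASCs. DESeq2 called 1 of the 10 chaperones higher in EASCs, and with total counts none was higher in either. All 11 together had a median log2 fold change of 0.46 in both. Stip1, which hands the receptor from HSP70 to HSP90, rose by 1.02 in EASCs (SE 0.0681, adjusted p = 2.80e-13) and 1.04 in PASCs (SE 0.0681, adjusted p = 1.69e-13). Dnajb1, an HSP40 protein, rose by 1.02 in EASCs (SE 0.0652, adjusted p = 9.01e-14). Both sit close to 2-fold and were under it with total counts in place of TMM. Hsp90aa1 had few and scattered counts. SASCs had 13, 10 and 5, PASCs had 1, 20 and 1, and EASCs had 6, 99 and 34, so the groups overlapped. Of 10 receptor coregulators, 0 were called in EASCs, where 10 had an adjusted p under 0.05 at any fold change, against 69.7% of all genes. In PASCs 7 of the 10 had one, against 69.2% of all genes, and 1 was called, the corepressor gene Nrip1 (-1.20, SE 0.0890, adjusted p = 2.67e-12). With total counts in place of TMM, 4 of the 10 were lower in each.

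Of 4 other steroid receptors, 3 were tested, and Esr2 was not. The progesterone receptor gene Pgr rose from 1.00 CPM, by 1.85 in EASCs (SE 0.242, adjusted p = 1.56e-07) and 1.92 in PASCs (SE 0.241, adjusted p = 8.04e-08). The estrogen receptor gene Esr1, which passed the filter only through SASCs, was lower, with 125 counts in SASCs, 8 in EASCs and 4 in PASCs, which is 15.2-fold lower in EASCs (exact 95% interval 7.49 to 36.0) and 30.8-fold lower in PASCs (11.7 to 115), intervals for counting error only. Of 7 relatives of the genes in the set, Tsc22d4 and Klf14 were not tested, and of the 5 tested only Klf13 was called, lower in EASCs (-1.03, SE 0.151, adjusted p = 9.58e-07) and under 2-fold with upper-quartile factors.

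Among 30 other genes known to be induced by glucocorticoids, 26 were tested, and Pdk4, Fam107a, Tfcp2l1 and Tat were not. Against SASCs, 11 fell and 2 rose in EASCs, where 14.2% of all genes were lower and 13.6% higher, and 14 fell and 1 rose in PASCs, where 14.9% were lower and 12.0% higher. The number that fell was 17 in each with total counts in place of TMM. Galnt15 would not have passed the filter without SASCs, nor Lcn2 on SASCs alone, and without both the numbers were 10 and 1 in EASCs and 12 and 1 in PASCs. Over the 26, the median log2 fold change was -0.92 in EASCs and -1.18 in PASCs. Mt2A and Mt1a, metallothioneins that bind zinc, were high in SASCs, at 1549 ± 62.7 CPM and 403 ± 46.6 CPM (SD, n = 3). Mt2A was at 125 CPM in PASCs and 51.4 CPM in EASCs, and Mt1a at 53.6 CPM and 17.2 CPM. For Mt2A the log2 fold change was -4.91 in EASCs (SE 0.0658, adjusted p = 1.13e-28) and -3.64 in PASCs (SE 0.0613, adjusted p = 1.95e-26), and for Mt1a -4.55 (SE 0.0809, adjusted p = 4.46e-26) and -2.91 (SE 0.0721, adjusted p = 6.55e-23). Cdkn1c, a cell cycle inhibitor, fell in both, at -5.06 in EASCs (SE 0.154, adjusted p = 5.37e-21) and -5.51 in PASCs (SE 0.162, adjusted p = 2.92e-21). Galnt15, a glycosyltransferase gene, had 727 counts in SASCs, 30 in EASCs and 3 in PASCs, or 23.6-fold lower (exact 95% interval 16.4 to 35.2) and 239-fold lower (81.4 to 1161), with intervals that cover counting error only.

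Per1, Dusp1, Sgk1 and Klf15, textbook targets of the receptor in the same list, were added outside the rule for named genes and after their values were seen. Klf15 fell in both, at -1.79 in EASCs (SE 0.119, adjusted p = 2.28e-13) and -1.62 in PASCs (SE 0.117, adjusted p = 1.42e-12). The clock gene Per1 fell in PASCs (-1.34, SE 0.0975, adjusted p = 1.58e-12) and was at -0.99 in EASCs (SE 0.0952, adjusted p = 5.20e-10), just under 2-fold. The kinase gene Sgk1 stood at -0.72 in EASCs and -0.91 in PASCs, and the phosphatase gene Dusp1 at -0.20 and -0.71, all with adjusted p under 0.05 and under 2-fold. At an adjusted p under 0.05 and any fold change, 5 of the 26 tested were higher and 20 lower in EASCs. In PASCs 3 were higher and 22 lower. Over all genes, 69.7% differed in either direction in EASCs and 69.2% in PASCs. Anxa1, Angptl4, Lcn2 and Ddit4 were also named after their values were seen. Anxa1, which encodes the anti-inflammatory protein annexin A1, was at 182 CPM in SASCs, 297 CPM for PASCs and 271 CPM for EASCs, higher in both (adjusted p = 2.63e-11 and 1.68e-09) but under 2-fold. Angptl4, a secreted inhibitor of lipoprotein lipase, rose in EASCs (1.31, SE 0.181, adjusted p = 3.81e-07) and stood at -0.16 in PASCs. Lcn2, a siderophore-binding protein, had 16, 8 and 7 counts in SASCs, 37, 19 and 40 in EASCs and 1, 3 and 2 in PASCs. Its summed counts were 3.18-fold higher in EASCs (exact 95% interval 2.101 to 4.93) and 5.09-fold lower in PASCs (2.09 to 14.9), where the intervals cover counting error only. Ddit4, an inhibitor of mTOR signalling, rose in PASCs (1.39, SE 0.0644, adjusted p = 7.56e-17) and stood at 0.89 in EASCs.

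Among 16 genes that glucocorticoids repress, 10 were tested, and Il1b, Tnf, Cxcl2, Mmp3, Mmp13 and Nos2 were not. Leaving out Il11, which would not have passed the filter on SASCs alone, 2 rose and 2 fell in EASCs, and 0 rose and 3 fell in PASCs. Over all genes tested, 13.6% were higher and 14.2% lower in EASCs, and 12.0% and 14.9% in PASCs. The number that fell reached 4 in EASCs when any of the PASCs samples or the second EASCs sample was left out. It reached 5 in PASCs when any of these 2 groups' samples was left out, with total counts or with no filter. Leaving a sample out lowers the number of samples in which the filter asks for counts. Genes listed here as not tested can then enter through SASCs alone, such as Mmp3 (13, 9 and 7 counts in SASCs) and Mmp13 (5, 11 and 10). Falls added in this way follow from the filter and are not read as results. Over the 10, the medians were 0.33 and -0.56. The cytokine gene Il11 had 17 counts in SASCs, 161 in PASCs and 286 in EASCs, so its summed counts were 9.61-fold higher in PASCs (exact 95% interval 5.82 to 16.9) and 17.3-fold higher in EASCs (10.6 to 30.1), counting error only. The chemokine gene Cxcl1 fell in both, at -1.89 in EASCs (SE 0.109, adjusted p = 1.02e-14) and -2.43 in PASCs (SE 0.115, adjusted p = 1.25e-16), and so did the cytokine gene Il6, at -1.93 in EASCs (SE 0.0972, adjusted p = 5.38e-16) and -1.99 in PASCs (SE 0.0978, adjusted p = 3.11e-16). The adhesion gene Vcam1 fell in PASCs (-1.94, SE 0.0881, adjusted p = 4.88e-17) and was at -0.65 in EASCs. Between EASCs and PASCs, 4 of the 10 were higher in EASCs and 0 were lower, against 5.19% and 2.20% of all genes.

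**Figure D4:**
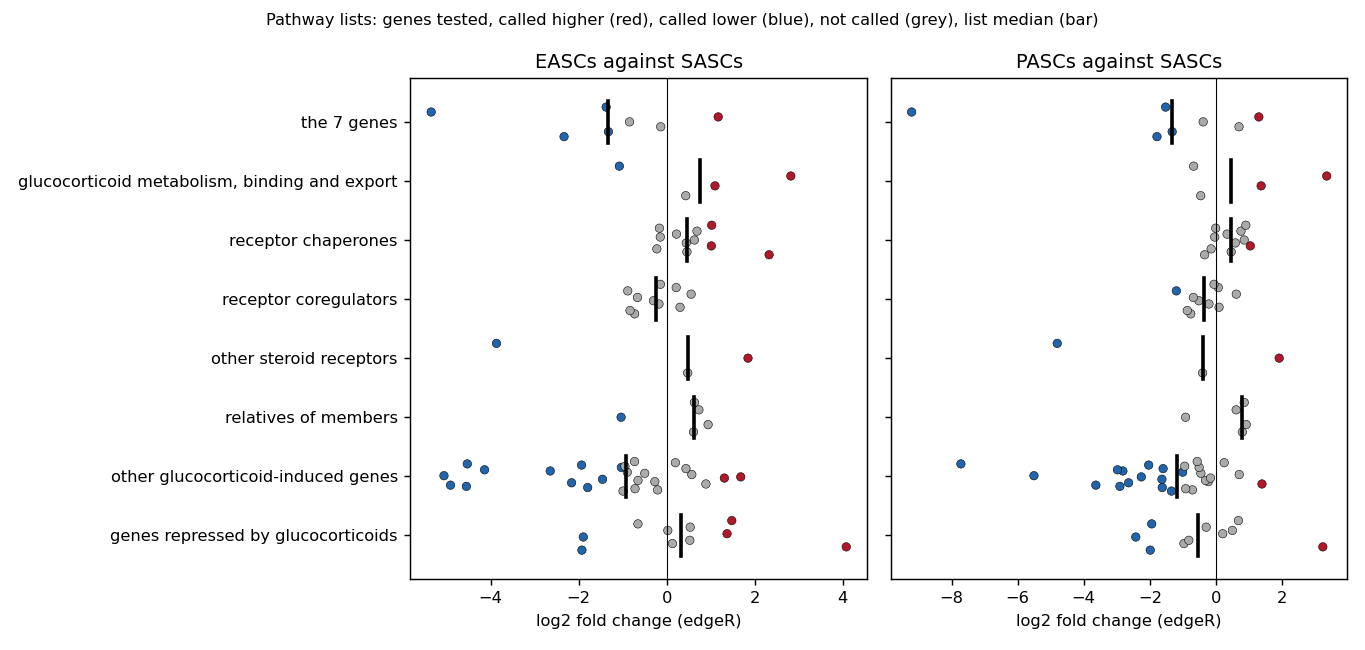
Log2 fold changes from edgeR (horizontal axes) of the tested genes of each list in EASCs against SASCs and PASCs against SASCs, with higher DEGs in red, lower DEGs in blue, genes not called in grey and the list median as a bar. The list of other induced genes has its median at -0.92 and -1.18, and the positions of the farthest points at the left of PASCs, Zbtb16 and Galnt15, depend on the prior count.

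Genes whose levels were most like those of the members other than Zbtb16, which was at or near 0 counts in 6 of the 9 samples, were sought by Pearson's r of log2 CPM over the 9 samples among 12773 genes, as a description. The nearest were Dlst and Lgals9 for Hsd11b1, Klhl24 and RGD1564420 for Nr3c1, H2afx and Ehd4 for Tsc22d3, and Antxr1 and Rere for Klf9. With 3 groups of samples many genes share such a pattern: 974 had r above 0.95 with Hsd11b1, 1282 with Nr3c1, 1560 with Tsc22d3 and 1179 with Klf9. The pattern of Fkbp5 was shared by 231 genes, with Zfp423 (r = 0.993) and Cdkn2b (r = 0.989) nearest. That of Nr3c2 was shared by 7, with Xpo4 (r = 0.978) and LOC102552386 (r = 0.978) nearest.

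The tissues around these depots include steroid-making cells, of the adrenal cortex beside the kidney and of the testis beside the epididymis, and their markers were read in all samples. The 6 markers found summed to 3.12 to 4.31 CPM in SASCs, 33.2 to 35.3 CPM for PASCs and 164 to 175 CPM for EASCs. The rise was that of a single gene, Star, the cholesterol carrier, at 2.41 CPM, 34.4 CPM and 171 CPM, named after its values were seen. Cyp21a1, an adrenal gene and the other marker tested, went the opposite way, with 89 counts in SASCs, 3 in PASCs and 4 in EASCs. Cyp17a1 and Nr5a1 were at 3 counts or fewer in every group, and Cyp11a1 at 0 counts in SASCs. Cyp11b1 and Hsd3b1 were not matched to the table.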

How the data were processed

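RNA of 3 samples each of SASCs, PASCs and EASCs was analysed. Per the study's methods, the authors trimmed paired-end reads, used TopHat to align them to rn6 and deposited counts per gene, as whole numbers and not normalized. The submitters' processing notes name TopHat2 and rn5, while the table's chromosome ends and scaffold names are those of rn6. The counting tool, the use of strand and the handling of duplicates and multiple matches are not given in the sources used here, so reads of overlapping or near-identical genes could be counted for either.

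Counts were fitted with edgeR 4.0.16 in R 4.3.3 (TMM, filterByExpr, 3 groups in a single quasi-likelihood fit without a block), with Benjamini-Hochberg adjustment in each of 3 comparisons. The fit was also run on simulated counts in which 200 genes were changed. That is far fewer than were called against SASCs, so the run did not test the scaling of these data. The study's DEGseq was not run. The SE is the absolute log2 fold change over the square root of F. The common biological coefficient of variation was 0.0685. Replicates differed by more than sampling noise (chi-square per degree of freedom 4.41 to 16.8). FPKM was computed here from CPM and the table's gene lengths.

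The 7 genes and the lists were chosen with earlier results of these data known. Named genes were the 7, at most 4 called genes with the largest change against SASCs in each list, listed genes not tested, and the 2 genes most like each of the 7 (not given for Zbtb16). Further genes are named in the text as such. Alternatives were DESeq2 1.42.0, limma-voom (limma 3.58.1), other scalings, no filter, removal of rRNA genes, only the 6 samples compared, a replicate block, other thresholds and leaving out each sample.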

Additional observations from a re-analysis of the deposited data

Results flagged for a closer look

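Among the pathway genes named in the report, 5 were picked for log2 fold changes against SASCs of opposite sign in EASCs and PASCs. The pick also asked for an adjusted p under 0.05 between EASCs and PASCs (edgeR quasi-likelihood test), so the p-values below are not separate support. Listed genes not named in the report, overlapping genes and cell type markers were not searched. Nr3c2 was at -0.13 in EASCs, where samples overlapped those of SASCs, and 0.70 in PASCs. EASCs against PASCs gave -0.83 (adjusted p = 8.11e-04), with all 3 EASCs samples below all 3 PASCs samples. H6pd was at 0.43 in EASCs and -0.46 in PASCs, and EASCs against PASCs gave 0.90 (adjusted p = 2.64e-11), again with no overlap of samples. Angptl4 was at 1.31 in EASCs and -0.16 in PASCs, where samples overlapped those of SASCs, and EASCs against PASCs gave 1.48 (adjusted p = 3.26e-07). For Nr3c2 in EASCs and Angptl4 in PASCs the opposite sign is therefore that of a value near 0. The other two are given as values with no p, since they would not have passed the filter on SASCs alone and their counts were low. Hsp90aa1 gave 2.67 between EASCs and PASCs on 1 to 99 counts per sample, with overlapping samples, and was not called with DESeq2, nor without the second EASCs sample, where the value was 1.54. Lcn2 gave 3.94, on 19 to 40 counts per EASCs sample and 1 to 3 per PASCs sample. The causes were not tested.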

How the results depend on the processing

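With Zbtb16, which passed the filter only through SASCs, included, the numbers of the 7 genes called against SASCs were 5 in EASCs and 5 in PASCs, and were 5 and 5 with any sample left out. Between EASCs and PASCs 0 were called, with a range of 0 to 1 when samples were left out in turn: 1 without the second EASCs sample (Zbtb16). In that comparison 3 were called at an adjusted p under 0.05 at any fold change and 1 at a fold change above 1.5. Over all genes, the DEGs of EASCs against SASCs, PASCs against SASCs and EASCs against PASCs numbered 4105, 3979 and 1091, 10298, 10227 and 4530 at any fold change, and 6414, 6405 and 1945 at a fold change above 1.5. With total counts in place of TMM, 3 values of the 7 genes crossed 2-fold: Fkbp5 in EASCs (-1.25) and Tsc22d3 in EASCs (0.77) and PASCs (0.98). The cause was not tested. No value reversed where called. Falling genes of the list of other induced genes ranged from 10 to 17 for EASCs and from 13 to 17 for PASCs, most with total counts. With a replicate block, 4061, 3944 and 1067 genes and 5, 5 and 0 of the 7 were called. Deviations of same-numbered samples correlated between -0.0348 and 0.0380, and 4 of 9 samples correlated best with their own number, so the numbers were not taken as pairs. Differences of a few counts, as for Zbtb16 outside SASCs, could not be resolved at this depth.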
